A study of Mus musculus with 20 samples.

Results

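The simple keratins Krt7, Krt8, Krt18 and Krt19 and the trophectoderm factors Cdx2, Gata3, Elf5, Tead4 and Tfap2c were followed in mouse embryonic stem cells that lack the DNA glycosylase TDG. The 9 genes, out of 46939 in the deposited expression table, were picked by symbol because of what some of them showed in these same libraries. Their differences between the genotypes are therefore given as descriptions, without a test. Of the 9 genes, 5 had a mean of at least 1 FPKM (fragments per kilobase of transcript, scaled by mapped fragments) over the 4 RNA libraries, the level above which 12035 genes were tested, and 4 lay below it. CTCF peaks within 20 kb of each gene were chosen by the same rule and are described in the same way.

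TDG KO cells, which carry a knockout of Tdg, were compared with WT control cells, both of a 129 strain background and received from the same outside laboratory. All cells were grown with serum and LIF on mitotically arrested mouse embryonic fibroblasts, which were removed by serial plating before harvest. RNA (polyadenylated) and CTCF ChIP-seq were each measured in 2 TDG KO and 2 WT libraries, and RNA polymerase II, IgG and input libraries were not analysed here. Whether replicates are separate cultures is not stated in the labels, and the p-values cover no more than the spread among these libraries, possibly a technical one. If each genotype is a single line, effects of the genotype and of the line cannot be told apart.

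Keratins form intermediate filaments as obligate pairs of a type I and a type II chain, and the simple keratins are those of single-layered epithelia. Krt8 and Krt18 are the first pair made in the mouse embryo, in the trophectoderm, the outer epithelium of the blastocyst that gives rise to the placenta. In the trophectoderm Tead4, the DNA-binding partner of YAP, acts upstream of Cdx2 and Gata3, Tfap2c works beside them, and Elf5 stabilises the fate later in trophoblast stem cells. Embryonic stem cells descend from the inner cell mass and normally keep this programme low.

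Tdg RNA (ENSMUSG00000034674), the targeted gene, had 5.50 and 4.74 FPKM in TDG KO libraries, against 28.1 and 30.4 FPKM in WT libraries, a log2 difference of -2.31 (SE 0.0866, adjusted p = 9.21e-06 by limma after Benjamini-Hochberg adjustment). Log2 differences are TDG KO minus WT on the log2(FPKM + 1) scale throughout, which understates the change of low genes. The defining pluripotency genes were high in all libraries, with Pou5f1 (Oct4) at 996 and 1094 FPKM in TDG KO cells and 1509 and 1572 FPKM in WT cells. Between 20537 and 21776 genes were above 0 in a library. Absolute depth is unknown, and the steps between low values put the shallowest RNA library, WT replicate 2, at 0.859 of the depth of WT replicate 1. Differences between the genotypes were common: limma called 54% of the 12035 tested genes, 24.4% higher and 29.5% lower in TDG KO cells, with a median log2 difference of -0.04. In bulk RNA, more cells that carry a transcript and more transcript per cell cannot be told apart.

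Both libraries of TDG KO cells lay above both libraries of WT cells for 6 of the 9 genes (Krt8, Krt18, Krt19, Cdx2, Elf5 and Tfap2c), and below them for 1, Tead4. The libraries of the 2 genotypes overlapped for Krt7 and Gata3. Among all 24145 genes above 0 in at least 1 library, the same absence of overlap was seen in 61.3%, with TDG KO higher in 31.7% and with TDG KO lower in 29.6%. Among the 12035 tested genes it was seen in 78.8%. Without TDG KO replicate 2 the number that lay lower was 2, and without WT replicate 2 it was 3. Since the rule used this contrast, nothing is read from the count itself. Krt8, Krt18, Krt19, Tead4 and Tfap2c passed the filter on level, and Krt7, Cdx2, Gata3 and Elf5 did not.

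**Figure D1:**
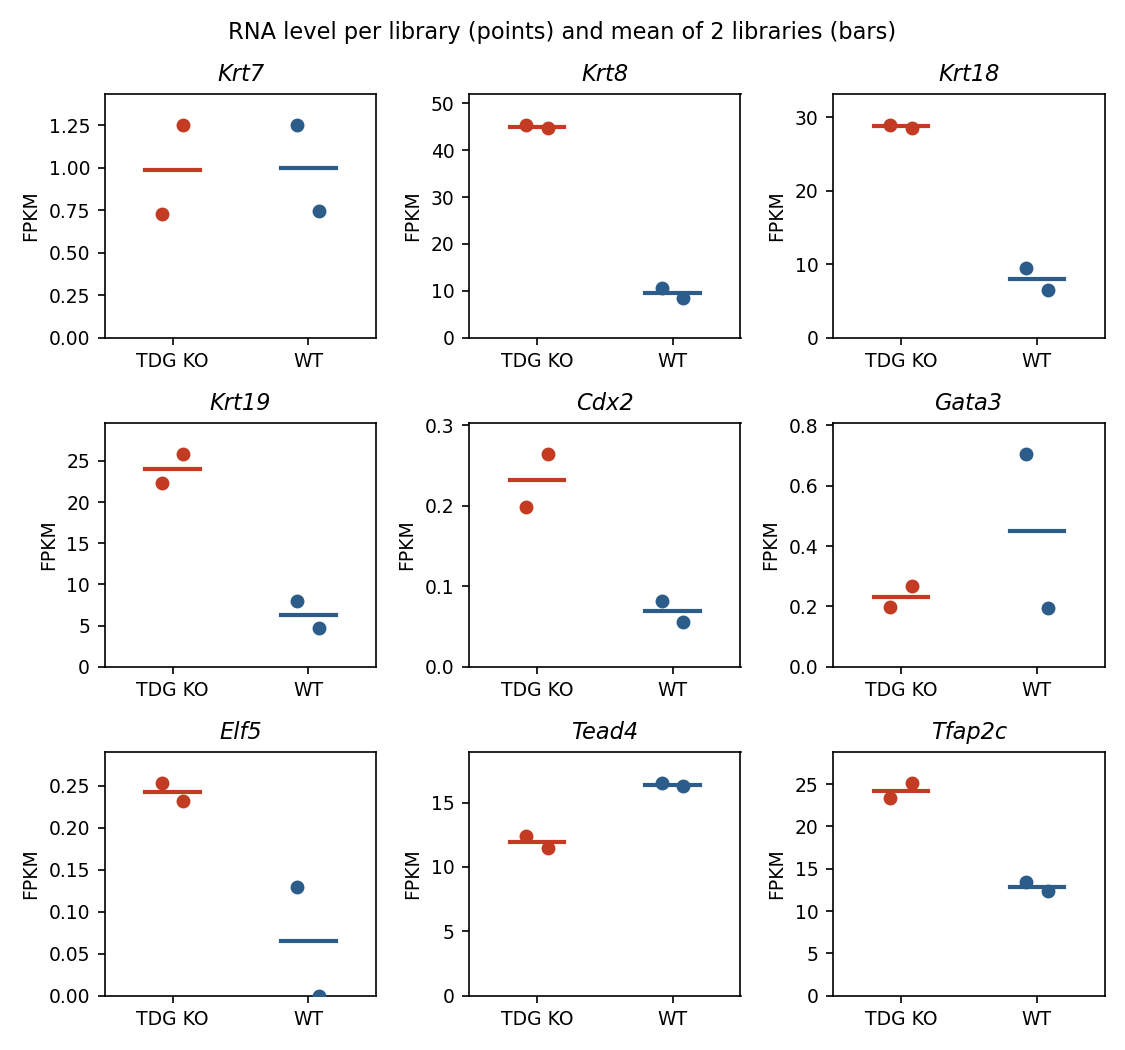
RNA level in FPKM of each of the 9 genes (vertical axis, starting at 0, own scale per gene) in TDG KO and WT libraries; points are single libraries and bars the mean of 2. Krt8, Krt18 and Krt19 stand at 22.3 to 45.3 FPKM in TDG KO cells and 4.67 to 10.5 FPKM in WT cells, while Cdx2, Gata3 and Elf5 stay under 1 FPKM in every library.

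Krt8 is shown first by its sequence, because a CTCF region found in TDG KO lists alone covers its start site. The windows run from 250 bases before to 50 bases after an annotated start site, 5′ to 3′ on the strand of the gene, and come from RefSeq on GRCm38.p6, the same build as mm10. Krt18, the neighbouring partner gene without a CTCF region in its window, and Gata3, the one member whose window holds the motif AGNNGGCGC (part of the CTCF motif), are given for comparison. Capitals mark a stretch of 12 bases nearest to the core consensus of the CTCF motif on either strand. Stretches that match equally well may occur elsewhere in a window and are not marked.
Krt8 chr15:102004293-102004592, minus strand: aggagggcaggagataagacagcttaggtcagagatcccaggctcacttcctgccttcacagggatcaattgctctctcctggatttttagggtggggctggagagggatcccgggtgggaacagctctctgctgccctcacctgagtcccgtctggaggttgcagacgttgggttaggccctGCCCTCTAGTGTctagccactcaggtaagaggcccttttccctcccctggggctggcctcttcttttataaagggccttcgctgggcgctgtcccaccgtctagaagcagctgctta
Krt18 chr15:102027966-102028265, plus strand: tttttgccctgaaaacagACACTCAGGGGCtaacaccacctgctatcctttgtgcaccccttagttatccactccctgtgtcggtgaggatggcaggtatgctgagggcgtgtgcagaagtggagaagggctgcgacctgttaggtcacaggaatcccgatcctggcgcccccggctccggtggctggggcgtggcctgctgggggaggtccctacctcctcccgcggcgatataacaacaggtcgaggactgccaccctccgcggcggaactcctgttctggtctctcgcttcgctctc
Gata3 chr2:9878551-9878850, minus strand, internal start: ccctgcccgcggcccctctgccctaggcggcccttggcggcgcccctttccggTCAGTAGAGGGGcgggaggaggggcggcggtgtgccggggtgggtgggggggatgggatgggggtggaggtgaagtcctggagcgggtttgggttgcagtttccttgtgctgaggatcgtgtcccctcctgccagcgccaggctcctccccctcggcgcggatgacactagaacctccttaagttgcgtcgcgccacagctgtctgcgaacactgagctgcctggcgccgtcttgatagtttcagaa
The Gata3 window is set on an internal start, 9353 bp inside the outer RefSeq end of the gene. The capitals in the Krt8 window differ from the core consensus at 1 position, read on the strand opposite to the gene, while the nearest matches differ at 3 positions in the Krt18 window and at 2 in the Gata3 window. Of all 32851 RefSeq windows, 4.33% hold a match with at most 1 mismatch on either strand, and 7.23% hold AGNNGGCGC. The core consensus was added after the sequences and peaks had been seen. RefSeq windows were matched for 6 of the 9 genes, and for Krt19, Tead4 and Tfap2c none is shown.

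The type II keratins come first. Krt8 (ENSMUSG00000049382, chromosome 15, 101996711 to 102004342) encodes the main type II chain of simple epithelia. It had 45.3 and 44.7 FPKM in TDG KO libraries, against 10.5 and 8.43 FPKM in WT libraries, or 45.0 ± 0.426 against 9.45 ± 1.45 FPKM (SD, n = 2 each). The TDG KO libraries were the higher pair, and the gap between the genotypes was wider than the spread inside either. The ratio of the means was 4.76 and the log2 difference 2.14. Within each genotype, the mean of Krt8 lay above that of 80.6% of tested genes in TDG KO cells and of 44.2% in WT cells.

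Krt7 (ENSMUSG00000023039), another type II keratin of simple epithelia and of later trophoblast, had no such gap between the genotypes. It had 0.727 and 1.25 FPKM in TDG KO libraries, against 1.25 and 0.744 FPKM in WT libraries. Each genotype held 1 higher and 1 lower library, and the log2 difference was -0.01. Krt7 lies on chromosome 15 from 101411043 to 101430313, and its mean of 0.994 FPKM put it just under the filter of 1 FPKM. The lowest member above the filter, Tead4, had a mean of 14.2 FPKM over the 4 libraries.

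Krt18 and Krt19 are the type I chains that pair with Krt8. Krt18 (ENSMUSG00000023043, chromosome 15, 102028216 to 102032026) had 28.9 and 28.6 FPKM in TDG KO libraries, against 9.55 and 6.52 FPKM in WT libraries. The mean was 28.8 ± 0.188 FPKM in TDG KO cells and 8.04 ± 2.14 FPKM in WT cells (SD, n = 2 each), a ratio of 3.58 and a log2 difference of 1.74. The TDG KO pair was again the higher one and much the tighter one. Krt19 (ENSMUSG00000020911, chromosome 11, 100140810 to 100148665), the shortest keratin, had 22.3 and 25.8 FPKM in TDG KO libraries, against 7.99 and 4.67 FPKM in WT libraries. Its mean was 24.1 ± 2.43 FPKM in TDG KO cells and 6.33 ± 2.35 FPKM in WT cells (SD, n = 2 each), a ratio of 3.80 and a log2 difference of 1.81.

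Krt19 lies on a chromosome that was shifted as a whole. The 1028 tested genes of chromosome 11 had a median log2 difference of 0.37, and 65.6% of them were called higher and 5.25% lower. Less the median of the other tested genes of its chromosome, the log2 difference of Krt19 was 1.44. Chromosome 15, which carries Krt7, Krt8 and Krt18, had a median of -0.06, and the tested genes within 5 Mb of Krt8 and Krt18 had a median of -0.10. Less the 5 Mb median, the differences of Krt8 and Krt18 were 2.24 and 1.84. The part of the chromosome-wide shift in the Krt19 difference was not tested.

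**Figure D2:**
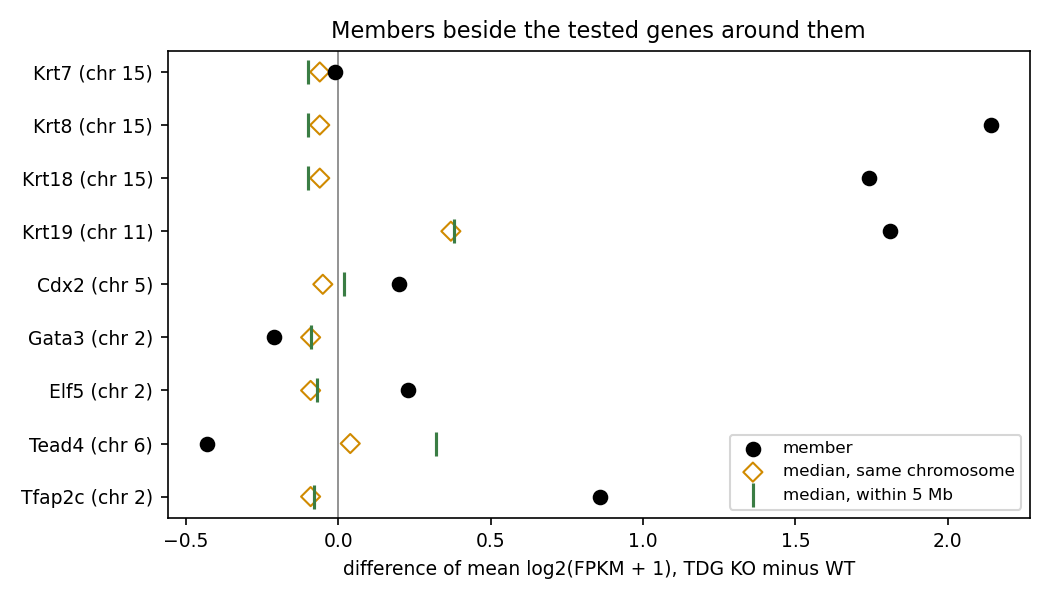
Difference of mean log2(FPKM + 1), TDG KO minus WT (horizontal axis), of the 9 genes as black points, beside the median of the other tested genes on the same chromosome (open diamonds) and within 5 Mb (ticks), 2 libraries per genotype. Krt8, Krt18, Krt19 and Tfap2c lie at 0.86 to 2.14, right of both medians, and Tead4 lies at -0.43, left of them.

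Since type I and type II chains pair, the balance between them was set out per library. FPKM is per transcript length, so levels of different genes may be summed and compared on that scale. Krt18 and Krt19 together held 51.2 and 54.4 FPKM in TDG KO libraries, against 17.5 and 11.2 FPKM in WT libraries. Relative to Krt8 their sum was 1.13 and 1.22 in TDG KO cells and 1.68 and 1.33 in WT cells, so this ratio was lower in both TDG KO libraries. The ratio of Krt18 alone to Krt8 was 0.638 and 0.641 in TDG KO cells and 0.912 and 0.774 in WT cells.

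Across all keratins, the 23 type II genes summed to 47.1 and 47.2 FPKM in TDG KO libraries and 13.0 and 9.98 FPKM in WT libraries. Krt8 made up 96.1% and 94.7% of that sum in TDG KO cells and 80.8% and 84.5% in WT cells. Krt222, at 0.655 and 0.566 FPKM in TDG KO libraries and 0.251 and 0.267 FPKM in WT libraries, was put in neither sum. The 27 type I genes summed to 114 and 118 FPKM in TDG KO libraries and 45.2 and 37.8 FPKM in WT libraries. Krt8 was thus most of the type II RNA in all 4 libraries, whereas type I RNA was divided. Krt18 and Krt19 held 45.1% and 46.3% of type I RNA in TDG KO cells and 38.8% and 29.6% in WT cells, and Krt42 alone held 40% and 39% in TDG KO cells and 41.8% and 48.9% in WT cells. Keratin genes resemble each other in sequence, and the sources used here do not state how reads of near-identical copies were assigned, which leaves the split between them uncertain.

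**Figure D3:**
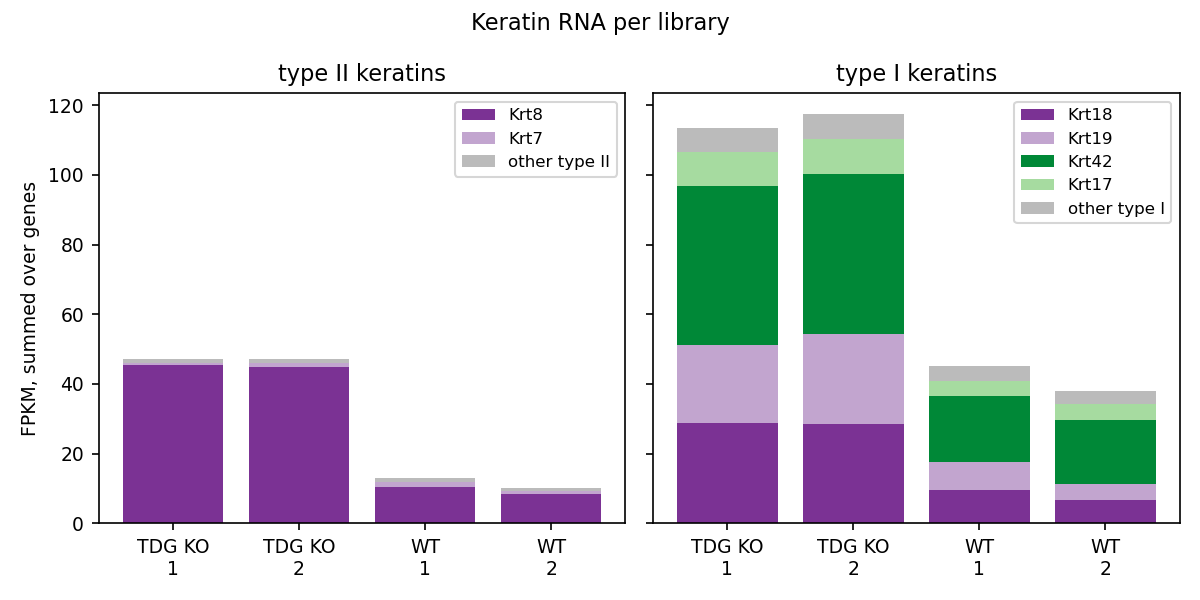
Keratin RNA in FPKM summed over genes (vertical axis, from 0), stacked by gene, in 2 TDG KO and 2 WT libraries, type II on the left and type I on the right. Type II is mostly Krt8 (96.1% and 94.7% in TDG KO libraries, 80.8% and 84.5% in WT libraries) and reaches 47.1 and 47.2 FPKM in TDG KO cells, against 13.0 and 9.98 FPKM in WT cells; type I is carried by Krt18, Krt19 and Krt42.

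Beyond the members, 47 other keratin genes were listed, 5 of them at 0 in all libraries, and 4 passed the filter. All 4 lie on chromosome 11, and limma called 3 of them higher and none lower, with Krt10 at 0.25 on the log2 scale and not called (adjusted p = 0.116). Keratins of that chromosome under the filter did not all lie the same way. Krt13 had 0.408 and 0.363 FPKM in TDG KO libraries, against 1.39 and 1.5 FPKM in WT libraries. Others, such as Krt20 and Krt23, lay higher in both TDG KO libraries. Krt42, a type I keratin next to Krt17, rose to 45.5 and 45.8 FPKM in TDG KO libraries, against 18.9 and 18.5 FPKM in WT libraries (log2 difference 1.24, SE 0.06, adjusted p = 2.13e-05). Krt16, a keratin of stressed and hair-associated epithelium, rose to 2.49 and 2.24 FPKM, against 0.420 and 0.406 FPKM in WT libraries (1.25, SE 0.11, adjusted p = 0.0002). It was tested only because of its level in TDG KO cells, since its WT mean was under 1 FPKM, so its call adds no support to the count. Krt17, its neighbour, rose to 9.74 and 10.1 FPKM, against 4.49 and 4.41 FPKM (1.00, SE 0.07, adjusted p = 0.000117). The median log2 difference over the 4 tested genes was 1.12, beside 0.37 over chromosome 11, and without chromosome 11 no other keratin is left to test.

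The trophectoderm factors did not move as 1 group. Tead4 (ENSMUSG00000030353, chromosome 6, 128224288 to 128300823) had 12.4 and 11.5 FPKM in TDG KO libraries, against 16.5 and 16.3 FPKM in WT libraries. Its mean was 11.9 ± 0.618 FPKM in TDG KO cells and 16.4 ± 0.133 FPKM in WT cells (SD, n = 2 each). The TDG KO libraries were the lower pair, by a ratio of 0.728 and a log2 difference of -0.43. Tested genes within 5 Mb of Tead4 had a median of 0.32, and less that median its difference was -0.75. Tfap2c (ENSMUSG00000028640, chromosome 2, 172549593 to 172558622), which encodes AP-2γ and is also used in germ cells and epithelia, had 23.4 and 25.1 FPKM in TDG KO libraries, against 13.4 and 12.4 FPKM in WT libraries. Its mean of 24.2 ± 1.22 FPKM in TDG KO cells and 12.9 ± 0.712 FPKM in WT cells (SD, n = 2 each) gave a ratio of 1.88 and a log2 difference of 0.86.

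Cdx2, Elf5 and Gata3 were low in all libraries. Cdx2 (ENSMUSG00000029646, chromosome 5, 147300805 to 147307270), the homeobox factor that defines the trophectoderm, had 0.199 and 0.264 FPKM in TDG KO libraries, against 0.0819 and 0.0556 FPKM in WT libraries. Elf5 (ENSMUSG00000027186, chromosome 2, 103411688 to 103450989) had 0.253 and 0.232 FPKM in TDG KO libraries, against 0.130 FPKM in 1 WT library, while in the other it was listed at 0. Both lay higher in TDG KO cells, but under the level of nearly all tested genes: the mean of Cdx2 in TDG KO cells exceeded that of 0.208% of them and the mean of Elf5 that of 0.216%. With a pseudocount of 0.1 in place of 1, the log2 difference of Cdx2 was 0.97 rather than 0.20 and that of Elf5 1.18 rather than 0.23. Gata3 (ENSMUSG00000015619, chromosome 2, 9857078 to 9890034) had 0.198 and 0.267 FPKM in TDG KO libraries, against 0.704 and 0.196 FPKM in WT libraries, which overlap. Without WT replicate 1 its log2 difference of -0.21 became 0.04.

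Ranked by level in TDG KO cells, Krt8 was highest, followed by Krt18, then Tfap2c and Krt19, then Tead4, with Krt7 near 1 FPKM and Cdx2, Elf5 and Gata3 lowest. In WT cells Tead4 and Tfap2c led, ahead of Krt8, Krt18 and Krt19. Among neighbours in these orders, Tfap2c and Krt19 overlapped in TDG KO cells, as did Cdx2, Elf5 and Gata3. In WT cells the values of Krt8 overlapped with those of Krt18, those of Krt18 with those of Krt19, and those of Cdx2 with those of Elf5. Between replicates, WT replicate 1 lay above WT replicate 2 in 9 of 9 members, against 44.5% of tested genes. Of the 9, 4 lay under the filter and so outside the genes of that share. For Tead4 the values were nearly equal, at 16.5 and 16.3 FPKM. All 22 tested fibroblast markers also had WT replicate 1 above WT replicate 2, as set out with the feeder cells.

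The genes beside each member were read in the same libraries. The nearest protein-coding genes and their distances are those of RefSeq. Krt78, whose row in the expression table ends 42424 bp from Krt8 and whose RefSeq gene reaches to 87 bp from it, had 0.0352 and 0.0376 FPKM in TDG KO libraries, against 0.0131 and 0.00508 FPKM in WT libraries. On the other side Krt8 and Krt18 lie 23874 bp apart with no protein-coding gene of RefSeq between them, and the next gene beyond Krt18, Eif4b, a translation initiation factor, fell to 213 and 213 FPKM in TDG KO cells, against 273 and 283 FPKM in WT cells (log2 difference -0.38, limma, adjusted p = 0.0024). Eif4b thus ran against the pair, and Krt78 stayed near 0. Krt19 sits between Krt15 and Krt9, both under 0.5 FPKM in every library.

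Around the factors, Tspan9, a tetraspanin 83565 bp from Tead4, rose to 21.9 and 20.5 FPKM in TDG KO libraries, against 8.35 and 8.11 FPKM in WT libraries (log2 difference 1.27, adjusted p = 3.7e-05). Tulp3, on the other side of Tead4, had 25.8 and 26.3 FPKM in TDG KO libraries and 23.9 and 23.3 FPKM in WT libraries (adjusted p = 0.094). Tead4 was therefore lower beside a neighbour that was higher. Cat (catalase), 2915 bp from Elf5, had 39.4 and 40.3 FPKM in TDG KO libraries and 41.8 and 42.1 FPKM in WT libraries (adjusted p = 0.325), so low Elf5 lies next to an abundant transcript. Neither Taf3 and Celf2 beside Gata3 (adjusted p = 0.212 and 0.0725) nor Bmp7, 309390 bp from Tfap2c (adjusted p = 0.0516), passed the threshold, and the remaining neighbours were under 1 FPKM or had no row.

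CTCF, the zinc finger protein that binds insulators and loop anchors, was placed by separate peak lists of each library, in mm10 coordinates. Peaks that overlapped were merged into 54729 regions. Those present in the 2 TDG KO lists and absent from the 2 WT lists are called TDG KO-only. The TDG KO lists were longer, with 48514 and 48833 peaks in TDG KO cells and 38303 and 37099 peaks in WT cells. Read depth of these libraries is unknown, and longer lists may follow depth or enrichment, which was not tested.

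Within 20 kb of the 9 genes lay 36 regions, each counted once, and a region between Krt8 and Krt18 belongs to both. The lists held 31 and 35 peaks there in TDG KO cells and 24 and 24 in WT cells, a ratio of 1.38 beside 1.29 over whole lists. Of the 36 regions, 23 were in all lists, 5 were TDG KO-only, none was WT-only and 8 had another pattern. Without TDG KO replicate 1, which leaves a single TDG KO list to meet the rule, 11 regions would count as TDG KO-only. When each list was reduced to its strongest 37099 peaks, the length of the shortest list, 1 region was TDG KO-only and 23 were in all lists. A TDG KO-only region lay near 4 of the 9 genes (Krt7, Krt8, Gata3 and Tead4), against 28.9% of the 24145 genes above 0 in at least 1 library and 30.1% of tested genes. A region in all lists lay near 7 of 9, against 80.4% and 86% of those genes. With 2 lists against 2, the smallest p of an exact permutation test is 0.33, and no test was made.

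At the start site of Krt8 lay a TDG KO-only region, chromosome 15 from 102004314 to 102004582, with its centre at -106 bases from the start at 102004342, on the upstream side. It is 269 bp long, of which 29 bp are inside the gene, and the whole of it falls in the promoter window printed above. The capitals of that window, at 102004398 to 102004409, lie inside it. A TDG KO-only region overlapped 135 of the 32851 promoter windows, or 0.411%, and a region in all lists overlapped 4.58%. The authors' scores of its peaks were 10.8 and 12.4 in the 2 TDG KO lists, higher than 12.2% and 15.9% of the peaks of each list. These are weak peaks within their own lists, and among the strongest 37099 peaks of each list the Krt8 start site had no TDG KO-only region. The score is the authors' own value per peak, its meaning is not given in the sources read, and it is used only to rank peaks within 1 list.

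The other regions around the keratin pair were mostly shared. Krt8 had 6 regions within 20 kb, of which 4 were in all lists. The one between Krt8 and Krt18 (102018113 to 102018431) ranked above 55% and 57.8% of peaks in TDG KO lists and 44% and 33% in WT lists, and it is the sole region near Krt18. Beyond the far end of Krt8, the regions at 101983889 to 101984695 and at 101988049 to 101988605 ranked above 79.7% to 95.1% of the peaks in each of the 4 lists.

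**Figure D4:**
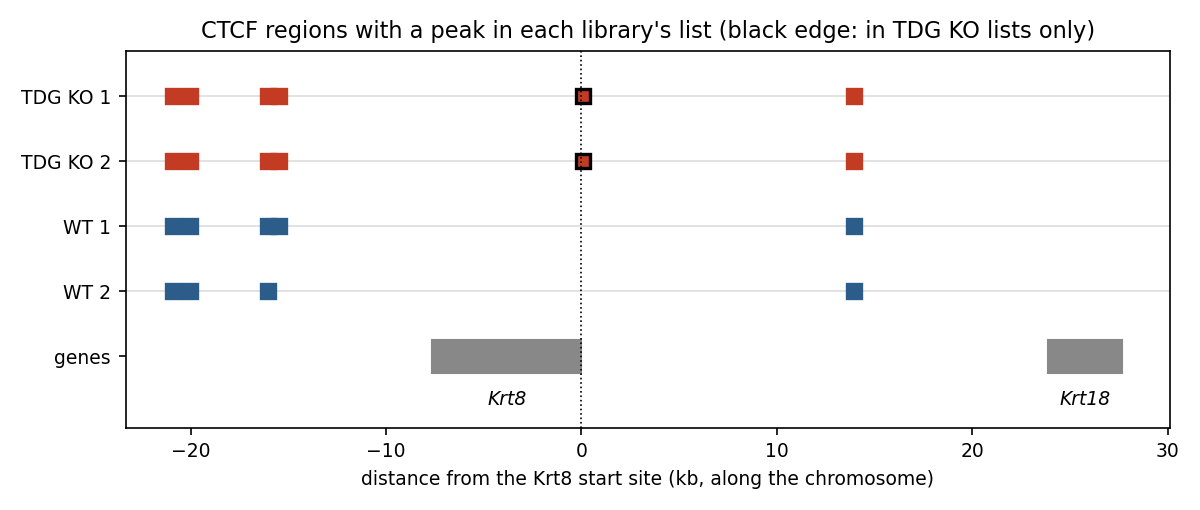
CTCF regions around Krt8 and Krt18 (squares) by distance in kb along the chromosome from the Krt8 start site (horizontal axis), with 1 row per library: a square marks a region with a peak in that list, and grey boxes are the genes. The region at the start site (black edge) appears in the rows of both TDG KO lists and in neither WT row; the 4 regions in all lists appear in every row.

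Krt7 had 3 regions and no peak in either WT list. Its 2 TDG KO-only regions lay inside the gene (101421018 to 101421316) and 15854 bp away (101394914 to 101395189), and the second ranked above 38.3% and 55.7% of the peaks of its lists. Krt7 RNA nonetheless had overlapping libraries. Krt19 had 2 regions, each in a single TDG KO list and ranked above 4.57% and 5.90% of its peaks, so the 3 keratins that were higher in TDG KO cells did not share a pattern of CTCF regions.

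Of the factors, Cdx2 had 7 regions in all lists and no TDG KO-only region, and its strongest (147293062 to 147293496) ranked above 94.5% to 98.6% of the peaks in each list. Elf5 had 4 regions in all lists, 3 of them inside the gene. Tfap2c had 2, and the one inside the gene (172550454 to 172550947) ranked above 97.6% and 97.0% of peaks in TDG KO lists and 97.3% and 96.4% in WT lists. Gata3 had a region in all lists inside the gene, centred at -1175 bases from the internal start of the printed window, and a TDG KO-only region 10179 bp outside the gene (9900213 to 9900550). Tead4 had 5 regions in all lists and a TDG KO-only region 6186 bp outside it (128307009 to 128307255). The region inside Tead4 at 128227337 to 128228160 ranked above 84.7% and 89.0% of peaks in TDG KO lists and 22.7% and 26.5% in WT lists. Ranks from lists of different lengths cannot show whether binding changed.

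The sequence of the promoter windows was set beside these regions. The Krt8 window holds 6 CpG dinucleotides, and 43.6% of all windows hold fewer, while the windows of Krt18, Gata3, Cdx2 and Krt7 hold 17, 22, 18 and 21. The 2 windows of Elf5 hold 3 and 10, so the Krt8 window is not the poorest in CpG. Among the 135 windows that overlap a TDG KO-only region, 26 hold the core consensus with at most 1 mismatch, or 19.3%, and none holds it without a mismatch. Among the 1504 windows that overlap a region in all lists the shares are 34.1% and 9.64%, and over all windows 4.33% and 0.557%. A match describes these letters and is not evidence of a site.

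The genes whose profile over the 4 libraries lay nearest to that of Krt8 were sought among 8464 genes with a mean of at least 5 FPKM, by the root mean square distance of log2(FPKM + 1) centred on each gene's mean. They were Smoc1, a secreted calcium-binding matrix protein (distance 0.0846), Glipr2 (0.0884), Inpp5d, the phosphatase SHIP1 (0.112), Scml2, a polycomb-associated protein of the germ line (0.117), and Mt1, a metallothionein (0.117). Glipr2, for example, had 48.8 and 49.9 FPKM in TDG KO libraries, against 10.2 and 9.86 FPKM in WT libraries. They lie on chromosomes 12, 4, 1, X and 8, and neither Krt18 nor Krt19 was eligible as a member.

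Other genes of the trophectoderm programme were counted against the shares of all tested genes, 24.4% higher and 29.5% lower. These lists and those below were written with earlier results of these data known. Their counts therefore describe the listed genes and are no test of a programme. Of 17 other trophectoderm regulators, 11 were tested, of which 4 rose and 6 fell, with a median log2 difference of -0.25. Sox15, a Sox factor of trophoblast giant cells, rose to 24.7 and 25.2 FPKM in TDG KO libraries, against 11.4 and 12.7 FPKM in WT libraries (log2 difference 0.99, SE 0.07, adjusted p = 0.000121). It lies on chromosome 11. Eomes, a T-box factor of trophoblast stem cells, fell to 1.6 and 1.62 FPKM in TDG KO libraries, against 2.97 and 3.14 FPKM in WT libraries (-0.64, SE 0.09, adjusted p = 0.00159). Sox21 fell to 0.621 and 0.616 FPKM, against 1.58 and 1.55 FPKM (-0.67, SE 0.10, adjusted p = 0.00217). Sox21 and Gata2, among the 6 that fell, had a TDG KO mean under 1 FPKM and passed the filter through their WT level.

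Of 24 products of trophoblast cells, 14 were tested, 10 rose, 1 (Atp1b1) fell and 3 were not called, with a median of 1.14. Peg10, an imprinted retrotransposon-derived gene that the placenta needs, rose to 94.5 and 82.5 FPKM in TDG KO libraries, against 21.0 and 20.9 FPKM in WT libraries (log2 difference 2.02, SE 0.08, adjusted p = 9.71e-06). The X-linked homeobox genes Rhox9 and Rhox6, active in placenta and germ line, rose by 1.97 (SE 0.10, adjusted p = 3.03e-05) and 1.80 (SE 0.08, adjusted p = 1.8e-05) on the log2 scale. The hormones and markers of differentiated placenta Prl3d1, Prl3b1 and Tpbpa, with Synb and Ctsq, were listed at 0 in all 4 libraries. Of the 10 that rose, 2 (Lrp2 and Wnt7b) had a WT mean under 1 FPKM and passed the filter through their TDG KO level. The same held for Amot among the Hippo genes that rose, Nefm among the filament genes, and Cldn3 and Rab25 among the junction genes, and, for its WT level, for Lum among the feeder markers that fell.

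Hippo pathway genes and TEAD partners were split, in a list that also holds Ctgf, Cyr61 and Ankrd1, which are targets of YAP and TEAD. Of 21 tested, 7 rose, 6 fell and 8 were not called, with a median of 0.03, and without WT replicate 2 the number that rose was 4. Amotl2, an angiomotin that holds YAP at junctions, fell to 33.1 and 30.5 FPKM in TDG KO libraries, against 61.9 and 58.2 FPKM in WT libraries (log2 difference -0.90, SE 0.07, adjusted p = 0.000138). Wwc1 (Kibra), an upstream activator on chromosome 11, rose by 1.01 (SE 0.06, adjusted p = 6.84e-05), and Vgll4, a cofactor that competes with YAP for TEAD, rose by 0.81 (SE 0.12, adjusted p = 0.00149). The YAP gene itself, named here after its values were seen, had 38.9 and 38.3 FPKM in TDG KO libraries and 44.9 and 48.7 FPKM in WT libraries (Yap1, log2 difference -0.27, SE 0.07, adjusted p = 0.0119). The targets are also named after their values were seen. Ctgf rose by 0.48 (SE 0.06, limma, adjusted p = 0.000832) and Cyr61 by 0.24 (SE 0.06, adjusted p = 0.0164), while Ankrd1 was not called (0.03, adjusted p = 0.914).

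Among other intermediate filament genes, 11 of 16 were tested, 9 rose and 1 (Lmnb1) fell, with a median of 0.58. Nes (nestin) rose to 11.7 and 10.8 FPKM in TDG KO libraries, against 2.90 and 2.70 FPKM in WT libraries (log2 difference 1.68, SE 0.08, adjusted p = 2.36e-05). Nefl and Ina, neuronal filament chains, rose by 1.59 (SE 0.08, adjusted p = 2.19e-05) and 1.31 (SE 0.08, adjusted p = 6.7e-05). Lmnb2, a nuclear lamin like Lmnb1, had 24.8 and 25.9 FPKM in TDG KO libraries and 25.9 and 24.6 FPKM in WT libraries and was not called (0.01, adjusted p = 0.951).

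Desmosomes and plakins anchor keratin filaments to the membrane. Of 17 listed genes 16 had a row and 10 were tested, 4 rose and 4 fell, with a median of 0.00. Pkp2 (plakophilin 2) rose to 22.7 and 23.1 FPKM in TDG KO libraries, against 4.33 and 5.16 FPKM in WT libraries (log2 difference 2.06, SE 0.09, adjusted p = 1.49e-05). Dsp (desmoplakin), which binds keratins, rose by 0.66 (SE 0.11, adjusted p = 0.0024), while the desmosomal cadherin Dsg2 fell to 6.95 and 6.03 FPKM in TDG KO libraries, against 10.9 and 11.6 FPKM in WT libraries (-0.71, SE 0.09, adjusted p = 0.000848).

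Of 30 genes of epithelial junctions and identity, 26 were tested, 16 rose and 5 fell, with a median of 0.31. Grhl2, a transcription factor of epithelial junction genes, rose to 9.03 and 8.84 FPKM in TDG KO libraries, against 2.14 and 2.26 FPKM in WT libraries (log2 difference 1.64, SE 0.08, adjusted p = 2.36e-05). Cgn (cingulin) and Cldn6 (claudin 6), both of tight junctions, rose by 1.55 (SE 0.08, adjusted p = 3.45e-05) and 1.44 (SE 0.07, adjusted p = 2.34e-05). The 5 that fell were Ctnnb1, Ctnna1, Ctnnd1, Tjp1 and Spint1, with log2 differences of -0.44 to -0.19. Cdh1 was not called (0.10, limma, adjusted p = 0.213). The summed level of the list was 999 and 1001 FPKM in TDG KO libraries and 972 and 1013 FPKM in WT libraries. Leaving out any 1 of the 4 libraries, TDG KO replicates 1 and 2 and WT replicates 1 and 2, reduced the number that fell to 2 each time.

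**Figure D5:**
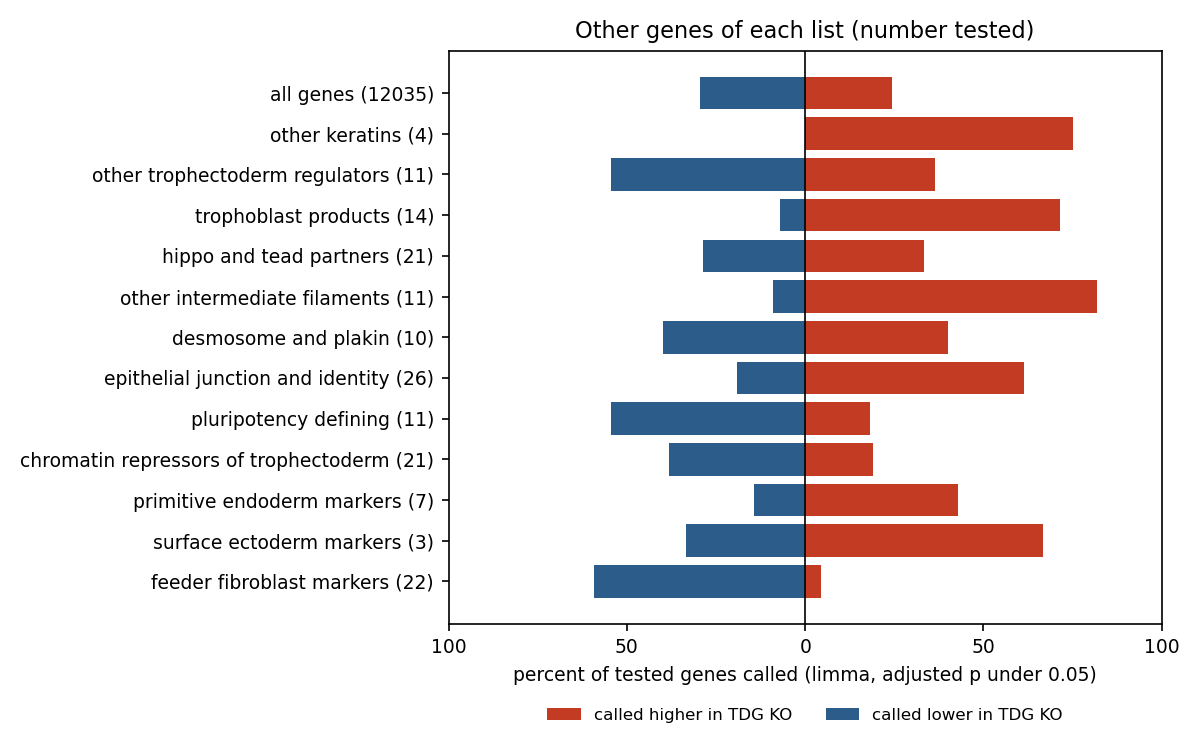
Share of tested genes called higher (right of 0) and lower (left of 0) in TDG KO cells by limma at an adjusted p under 0.05, in percent (horizontal axis), for all 12035 genes in the top row and for each list, with the number tested in brackets. Trophoblast products stand at 71.4% higher and 7.14% lower and other intermediate filaments at 81.8% and 9.09%, beside 24.4% and 29.5% of all genes. The lists were written with earlier results of these data known, so the shares describe the listed genes only.

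Of 11 pluripotency genes, all tested, 2 rose, 6 fell and 3 were not called, with a median of -0.18, and without WT replicate 1 the number that rose was 1. Klf4 fell to 110 and 105 FPKM in TDG KO libraries, against 178 and 185 FPKM in WT libraries (log2 difference -0.75, SE 0.06, adjusted p = 0.000185). Pou5f1, which represses Cdx2 in the inner cell mass, fell by 0.56 on the log2 scale (SE 0.08, adjusted p = 0.00189) and Utf1 rose by 0.67 (SE 0.08, adjusted p = 0.00073). Of 21 chromatin genes listed as repressors of the trophectoderm programme, 4 rose and 8 fell, with a median of -0.12. The 8 that fell were Setdb1, Suv39h1, Suv39h2, Eed, Ezh2, Rnf2, Ring1 and Dnmt1, with log2 differences of -0.53 to -0.29. The DNA methyltransferase genes Dnmt3a, Dnmt3b and their cofactor Dnmt3l rose by 1.44, 1.05 and 1.02 (SE 0.06, 0.06 and 0.07, adjusted p = 1.66e-05, 4.77e-05 and 8.56e-05).

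Simple keratins are made by other epithelia too, so markers of those cells were read. Of 18 primitive endoderm markers 7 were tested, 3 rose and 1 fell, with a median of 0.11. The defining factors Gata4, Gata6, Sox17, Sox7 and Foxa2 were under 1 FPKM, while Lamc1 fell by 0.71 on the log2 scale (SE 0.06, adjusted p = 0.000235). Sparc rose by 0.49 (SE 0.11, adjusted p = 0.00995) and Lamb1 by 0.36 (SE 0.09, adjusted p = 0.0131). Without TDG KO replicate 1 none of the list was called higher and without WT replicate 2 only 1 was, while the number that fell was 3 without WT replicate 2. Adjusted p was 0.0593 for Sparc and 0.0948 for Lamb1 without TDG KO replicate 1, 0.0882 for Sparc without TDG KO replicate 2, and 0.0761 for Lamb1 without WT replicate 2. The summed level of the list was 311 and 316 FPKM in TDG KO libraries and 302 and 258 FPKM in WT libraries. Their part in the keratin levels was not tested.

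Of 12 surface ectoderm markers only 3 were tested, Sfn, Krt17 and Itga6, with a median of 1.00 and a summed level of the list of 113 and 108 FPKM in TDG KO libraries and 86.2 and 89.5 FPKM in WT libraries. Sfn (14-3-3 sigma) rose to 59.1 and 59.4 FPKM in TDG KO libraries, against 24.5 and 26.0 FPKM in WT libraries (log2 difference 1.20, SE 0.06, adjusted p = 2.82e-05), Krt17 rose as given above, and Itga6 fell by 0.54 (SE 0.08, adjusted p = 0.00134). The defining Krt5, Krt14 and Trp63 were under 1 FPKM in every library.

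Feeder fibroblasts are the other cells that these cultures could hold. Of 24 listed, 22 were tested, 13 fell and 1 (Tagln) rose in TDG KO cells, with a median of -0.61, and their summed level was 342 and 386 FPKM in TDG KO libraries and 589 and 392 FPKM in WT libraries. Without WT replicate 1, 2 were called higher. None of the list was at 0 in all libraries. Col3a1 had 15.3 and 19.0 FPKM in TDG KO libraries, against 57.1 and 29.8 FPKM in WT libraries (log2 difference -1.23, SE 0.27, adjusted p = 0.00856). S100a4 and Dcn fell by 1.09 (SE 0.15, adjusted p = 0.00148) and 1.19 (SE 0.21, adjusted p = 0.00367). Without TDG KO replicate 1 or replicate 2, 3 of the markers were called lower, and adjusted p was 0.0987 and 0.0616 for Col3a1. Without TDG KO replicate 2 it was 0.0532 for Dcn. In all 22 tested markers, as in all 9 members, WT replicate 1 exceeded WT replicate 2. Krt8, Krt18 and Krt19 were highest in the TDG KO libraries, where the summed level of these markers was lowest. That sum was close between TDG KO replicate 2 (386 FPKM) and WT replicate 2 (392 FPKM), but single markers differed in both directions. In that order of libraries, Tagln had 77.7 and 34.7 FPKM and Acta2 55.6 and 35.7 FPKM. Bgn had 53.8 and 79.1 FPKM and S100a4 29.9 and 50 FPKM. The part of the fibroblasts in the keratin levels and in the spread between WT libraries was not tested.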

How the data were processed

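Expression values are the FPKM that the authors deposited per gene and library, and the peak lists hold a score per peak, per the file headers. Bowtie2 2.2.9, MACS2 2.2.1, deepTools, TopHat2 2.1.1, Cufflinks 2.2.1, Cuffdiff and mm10 are named, with no role or order, in the submitters' processing notes. Not given in the sources used here: strand use, peak thresholds and control libraries. The authors' deposited comparison table (log2 folds, p-values and q-values) served only for gene symbols, IDs and positions.

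From the deposited FPKM, log2(FPKM + 1) went into limma 3.58.1 under R 4.3.3 (trend option, 2-sided, no covariates) over the 12035 genes with a mean of at least 1 FPKM, with Benjamini-Hochberg adjustment and a threshold of 0.05. On simulated data of this comparison over 12035 genes, 36% of 100 genes changed by 0.5 log2 and 82% of 100 changed by 1 log2 were called, and 2 of 11835 unchanged genes. The changed genes were drawn from those with a mean log2(FPKM + 1) above 2, so these shares do not cover lower genes. The data held far more calls, 54%, and may have other rates. The members, lists and tests were chosen with earlier results of these data known. From each list up to 3 called genes with the largest difference and no overlap between genotypes are named, with members, neighbours and the 5 nearest profiles to Krt8. Other genes named were chosen after their values were seen.

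Peaks of the 4 lists were merged at 1 bp of overlap. No step converted coordinates. Start sites and promoter windows are those of RefSeq (GRCm38.p6). Alternatives were the pseudocount, the filter, 2 scalings, each library left out, a replicate block, the peak window, list length and overlap. Leaving out chromosome 11 and the core consensus were added after seeing the data.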

Additional observations from a re-analysis of the deposited data

How the results depend on the processing

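The higher level of Krt8, Krt18, Krt19 and Tfap2c and the lower level of Tead4 kept their direction under every alternative run. Leaving out 1 library gave log2 differences of 2.00 to 2.29 for Krt8, 1.5 to 1.98 for Krt18, 1.48 to 2.14 for Krt19, 0.81 to 0.92 for Tfap2c, -0.48 to -0.38 for Tead4, 0.17 to 0.24 for Cdx2, 0.14 to 0.31 for Elf5, -0.47 to 0.04 for Gata3 and -0.20 to 0.18 for Krt7. Less the chromosome median, the difference was 1.44 for Krt19, 0.96 for Tfap2c, 0.25 for Cdx2 and 0.32 for Elf5. A pseudocount of 0.1 gave 0.97 for Cdx2, -0.56 for Gata3 and 1.18 for Elf5, and median scaling gave 0.25 for Cdx2. Without 1 library, 6 to 7 members lay apart as higher and 1 to 3 as lower. With no filter, the genes called higher were 9 of the other keratins and 7 of the trophectoderm regulators; those called lower were 1 keratin, 3 junction genes, 2 primitive endoderm, 2 surface ectoderm and 4 feeder markers. At a mean of at least 5 FPKM, 2 trophectoderm regulators were lower, and 4 Hippo and 9 junction genes were higher. Junction genes called lower were 3 with upper-quartile scaling and 2 with median scaling, against 5. Leaving out 1 library gave 4 to 6 Hippo genes higher, 2 junction genes lower each time, 1 to 2 pluripotency genes higher, 0 to 2 primitive endoderm markers higher and 1 to 3 lower, and 1 to 2 feeder markers higher and 3 to 18 lower. Without chromosome 11, 0 keratins and 1 surface ectoderm marker were called higher. Over all genes, 2942 higher and 3554 lower calls became 3283 and 3069 with median scaling and 3345 and 2886 with no filter. The replicate numbers share only a number: deviations of same-numbered libraries correlated at r = -0.0157 over 12035 genes, and with the replicate block 3030 genes were higher and 3666 lower, with 3 primitive endoderm markers lower. Near members, 38 CTCF regions were in all lists within 50 kb, against 23. TDG KO-only regions numbered 3 within 10 kb, 1 among the strongest peaks, with 0 at the Krt8 start site, and 5 to 11 with 1 list left out (11 without TDG KO replicate 1). Of 406 alternative values of 41 named genes, 396 kept call and direction and 10 lost the call, those of Col3a1, Dcn, Lamb1 and Sparc. Unless the alternative itself tests fewer genes or samples, the cause was not tested.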

Other observations

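Several regulators of later trophoblast lay under the filter on level and were therefore in no test. They were picked out after their values had been seen, and their levels are given as a description. Hand1, a factor of trophoblast giant cells, had 0.939 and 0.683 FPKM in TDG KO libraries, against 0.105 and 0.0102 FPKM in WT libraries. Ascl2, of the ectoplacental cone, had 1.31 and 1.53 FPKM in TDG KO libraries, against 0.279 and 0.418 FPKM in WT libraries. Gcm1, of the syncytiotrophoblast, had 0.317 and 0.231 FPKM, against 0.0842 and 0.0535 FPKM in WT libraries. In each of the 3 both TDG KO libraries lay above both WT libraries, as in 31.7% of the 24145 genes above 0 in at least 1 library. Because of how the 3 were picked, nothing is read from this. Tfap2a, a relative of Tfap2c, ran the other way, with 0.283 and 0.256 FPKM in TDG KO libraries and 0.582 and 0.481 FPKM in WT libraries. The pattern was not particular to trophoblast genes. Under the same filter, the primitive endoderm markers Foxa2, Afp, Hnf4a, Cubn and Amn also lay higher in both TDG KO libraries. So did the surface ectoderm markers Trp63, Lamb3, Wnt6 and Dlx5. Gata4, Gata6, Sox7 and Pdgfra lay lower, as did Tfap2a, and the rest of both lists under the filter overlapped.

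Among trophoblast products that the naming rule did not reach, Wnt7b rose to 4.26 and 4.60 FPKM in TDG KO libraries, against 0.904 and 0.871 FPKM in WT libraries (log2 difference 1.52, SE 0.09, limma, adjusted p = 6.1e-05). The water and glycerol channel Aqp3 rose to 30.9 and 34.4 FPKM, against 11.8 and 11.9 FPKM in WT libraries (1.39, SE 0.07, adjusted p = 3.26e-05). Cited1, an X-linked cofactor that the placenta needs, rose to 9.33 and 8.87 FPKM, against 2.46 and 1.74 FPKM in WT libraries (1.71, SE 0.12, adjusted p = 0.000103). All 3 were chosen after their values had been seen, and Wnt7b was tested only because of its level in TDG KO cells.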
